A study of Mus musculus with 2 samples.

Results

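Conventional CD4 T cells caught in division were examined among donor T cells taken from the spleens of mice with acute graft-versus-host disease (aGvHD). A cell counted as a member if it held at least 1 UMI of Cd4, no UMI of Cd8a or Cd8b1, no UMI of Foxp3, at least 3 UMIs over Cd3d, Cd3e, Cd3g, Trac, Trbc1 and Trbc2, fewer than 5 UMIs over C1qa, C1qb and C1qc, and at least 3 UMIs over Mki67, Top2a, Cdk1 and Pclaf. A UMI (unique molecular identifier) stands for 1 captured RNA molecule. This rule was met by 403 of 14973 kept cells, of which 194 of 7179 were in the day +7 library and 209 of 7794 in the day +14 library. In both libraries the recipients were lethally irradiated BALB/c (H-2d) mice that had been given T cell-depleted bone marrow and purified splenic T cells, both from WT C57BL/6 (H-2b) mice, and the sort from the spleen was for CD45+ H2Kb+ H2Kd- TCRβ+ cells. The labels call the transferred T cells naive. The study's figure legends for this experiment do not, while its methods refer to a model described with naive T cells. Because marrow and T cells came from the same donor strain, the H2K gates did not separate transferred T cells from T cells that had matured from the marrow. Suspensions of several spleens were pooled before capture, so each day is a single library and the 2 days have no replicates. The day of each library is that of its title, since the protocol text names day +7 for both, and both library names carry the letters PBS, whose meaning is not given.

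CD4 T cells read antigen on MHC class II and, once activated, divide and take on helper programs such as Th1, with interferon γ and T-bet, or follicular help, with Maf and IL-21, while some acquire granzymes. In aGvHD they respond to recipient antigens and expand within days of transfer. Division itself is written in the transcriptome in waves, with replication factors and histones made in S phase and spindle and chromosome proteins in G2 and mitosis.

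The genes that set the rule for division belong to these waves. Mki67 encodes Ki-67, which coats mitotic chromosomes, Top2a the topoisomerase that untangles sister chromatids, Cdk1 the kinase that drives entry into mitosis and Pclaf a partner of PCNA at the replication fork. Their promoters are shown because the rule rests on these transcripts, each from 250 bases before to 50 bases after the annotated start, from RefSeq on GRCm38.p6, the assembly also called mm10. They lie at chr7:135716330-135716629 (Mki67, minus strand), chr11:99024140-99024439 (Top2a, minus strand), chr10:69352863-69353162 (Cdk1, minus strand) and chr9:65890073-65890372 (Pclaf, plus strand). Capitals mark matches on either strand to TTTGAA (the core of the cell cycle homology region), CCAAT (the CCAAT box) and the E2F-type words TTCCCGC and TTGGCGC.
Mki67: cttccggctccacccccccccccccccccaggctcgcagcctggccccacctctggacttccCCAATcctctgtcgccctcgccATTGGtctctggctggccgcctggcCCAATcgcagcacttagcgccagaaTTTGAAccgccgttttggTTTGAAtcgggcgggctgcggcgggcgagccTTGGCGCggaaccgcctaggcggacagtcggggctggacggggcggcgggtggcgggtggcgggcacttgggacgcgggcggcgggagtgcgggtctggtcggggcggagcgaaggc
Top2a: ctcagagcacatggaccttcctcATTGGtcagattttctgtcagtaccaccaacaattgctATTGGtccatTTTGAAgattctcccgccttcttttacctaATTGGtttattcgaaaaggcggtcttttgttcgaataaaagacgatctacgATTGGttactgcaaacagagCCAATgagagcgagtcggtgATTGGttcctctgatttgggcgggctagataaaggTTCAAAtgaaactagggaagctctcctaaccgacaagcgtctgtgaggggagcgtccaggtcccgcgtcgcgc
Cdk1: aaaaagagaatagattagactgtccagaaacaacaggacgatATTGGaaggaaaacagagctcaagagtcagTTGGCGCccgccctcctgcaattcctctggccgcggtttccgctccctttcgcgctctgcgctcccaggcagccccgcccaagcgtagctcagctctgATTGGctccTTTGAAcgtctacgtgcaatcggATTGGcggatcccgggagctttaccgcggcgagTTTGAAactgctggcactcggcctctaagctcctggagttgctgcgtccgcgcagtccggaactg
Pclaf: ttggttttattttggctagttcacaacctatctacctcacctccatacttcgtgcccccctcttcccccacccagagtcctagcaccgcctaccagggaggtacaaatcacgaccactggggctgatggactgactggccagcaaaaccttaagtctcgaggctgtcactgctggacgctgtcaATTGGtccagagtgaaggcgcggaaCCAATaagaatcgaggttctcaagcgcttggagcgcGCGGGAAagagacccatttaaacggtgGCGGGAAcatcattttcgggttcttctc
TTTGAA was found in 3 of these 4 promoters, CCAAT in 4, TTCCCGC in 1 and TTGGCGC in 2. Among all 32851 promoters of the same length, 17.9% held TTTGAA, 37.4% CCAAT, 4.60% TTCCCGC and 2.45% TTGGCGC. In 60 promoters of G2 and mitosis genes, which cover 54 of the 66 genes listed, 68.3% held TTTGAA and 80.0% CCAAT, while TTCCCGC was in 3.33% and TTGGCGC in 10.0%. In 43 promoters of S phase genes, covering 38 of 50 genes, TTTGAA was in 14.0%, CCAAT in 65.1%, TTCCCGC in 39.5% and TTGGCGC in 18.6%. A match is a description of these letters and not a binding site.

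The rule removed most cells that held Cd4. In the day +7 library 693 kept cells had a Cd4 UMI, 483 of them had no Cd8a or Cd8b1 UMI, 463 had in addition no Foxp3 UMI, 456 passed the T cell and C1q conditions, and 194 passed the division threshold. In the day +14 library the same steps left 1236, 711, 697, 694 and 209 cells. Not counted were 139 cells of day +7 and 337 of day +14 with both Cd4 and Cd8 UMIs and at least 3 division UMIs. Their median depths of 20916 and 18609 UMIs exceeded those of the members, which were 12906 and 12028 UMIs. They were 4.05% and 8.76% of the dividing cells with a Cd8 UMI under the same T cell, Foxp3 and C1q conditions. Whether the Cd4 UMIs in them came from the cells themselves was not tested, nor was the same question for members with a single Cd4 UMI. A member rested on a single Cd4 UMI in 84 and 77 cells and on 2 or more in 110 and 132 cells, up to 10 and 8 UMIs. No Cd4 UMI was found in the 34 and 53 droplets of the neutrophil lineage, which should lack Cd4, whose median depths were 11920.5 and 5803 UMIs and in which the upper limits of the exact binomial interval were 10.3% and 6.72%. Division UMIs were found there, and 9 of these 34 and 13 of these 53 droplets, from a lineage whose precursors also divide, reached 3 UMIs. The 2 libraries shared 20 cell barcodes as deposited, none of them a member.

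Cells on either side of the threshold lay well below the median member in their cycle transcripts. The 28 and 42 conventional CD4 cells with 2 division UMIs, just outside the rule, had medians of 8074.5 and 5776 UMIs and of 0.235% and 0.192% of their UMIs on G2 and mitosis genes and 0.0930% and 0.131% on S phase genes. The 13 and 12 members with 3 UMIs, just inside, had medians of 8420 and 6482 UMIs and of 0.323% and 0.282% on G2 and mitosis genes and at most 0.156% on S phase genes. Over all members the medians were 1.34% and 1.46% for G2 and mitosis and 0.463% and 0.538% for S phase, and 131 of 194 and 150 of 209 members held 12 or more division UMIs. Levels are given in CPM, the UMIs of a gene per 1000000 UMIs summed over the members of a library. Cd4 was at 151 CPM in the day +7 library and 168 CPM at day +14, Mki67 at 430 and 453 CPM, Top2a at 527 and 566 CPM, Cdk1 at 199 and 266 CPM, and Pclaf at 752 and 763 CPM. These levels follow from the rule, as in part do the lower cycle shares of cells near the threshold, and both are a description.

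The label was checked against lineage genes that the rule did not use. Zbtb7b, Cd40lg, Cd28, Icos, Tnfrsf4, Cd5, Cd6 and Izumo1r, which belong to the helper lineage, had a summed level of 912 CPM [877, 947] at day +7, and of 1186 CPM [1145, 1228] at day +14, against 323 and 356 CPM in cycling CD8 cells chosen by the mirrored rule (Cd8a or Cd8b1 present, Cd4 absent). Cd40lg, the ligand through which helper cells license B cells and dendritic cells, was at 83.8 and 74.1 CPM in the members and at 3.76 and 1.15 CPM in cycling CD8 cells. Genes of the CD8 lineage other than Cd8a and Cd8b1 summed to 334 and 471 CPM in the members and to 909 and 932 CPM in cycling CD8 cells. These were Runx3, Crtam, Eomes, Gzmk, Klrd1, Klrk1, Klrc1, Itgae and Fasl. The log2 ratio of members over CD8 cells was -1.44 at day +7 and -0.98 at day +14, so the separation was smaller at day +14. Gzmk and Eomes rose in the members between the days, and Gzmk was above its CD8 level at day +14, against the label. Of the cycling CD8 cells, 72 of 3291 and 59 of 3508 rested on a single Cd8 UMI. All brackets are 95% intervals, exact Poisson for levels, exact binomial (Clopper-Pearson) for shares and exact conditional binomial for ratios, and they cover counting error only. No test was possible with 1 library a day, and the day cannot be told apart from the library.

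Depth and RNA composition differed between the libraries. The members held 2840873 UMIs at day +7 and 2687261 at day +14, with 4154 to 58842 and 3207 to 38195 UMIs per cell and median mitochondrial shares of 2.19% and 2.33%. Conventional CD4 cells below the division threshold were shallower, with medians of 6655 and 4318 UMIs in 262 and 485 cells. Gm42418, a locus that overlaps ribosomal RNA sequence, was at 15948 CPM in the day +7 members and 4616 CPM in the day +14 members and was also lower at day +14 in cycling CD8 cells (log2 ratio -1.64), and its part in the comparisons was not tested. For the 4990 genes whose average over both libraries reached 20 CPM in the members, the median log2 ratio of day +14 over day +7 was 0.09 and 63.3% of genes lay above 0, with 1 CPM added to each value here and in every log2 ratio.

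Markers of other lineages had low sums once 2 cells were set aside, which carried most of the myeloid and erythroid UMIs. Myeloid markers (10 genes) had a summed level of 78.8 CPM at day +7, and of 1701 CPM at day +14, where 4442 of 4572 UMIs came from 1 cell of 33007 UMIs that held 3408 UMIs of S100a8 and S100a9. Without that cell the sum was 49.0 CPM, and 124 of 194 and 122 of 209 members had no myeloid UMI. Erythroid markers (9 genes) were at 59.8 and 8.19 CPM, with 163 of 170 UMIs at day +7 in 1 cell. B cell markers (10 genes) were at 121 and 141 CPM, with no UMI in 78 and 94 members and with Ms4a1 at 0 in both libraries, dendritic markers (7 genes) at 7.39 and 5.21 CPM with Flt3, Siglech and Cd209a at 0, and markers of NK and innate T cells (8 genes) at 4.22 and 2.98 CPM with Ncr1, Klra8, Tcrg-C4 and Zbtb16 at 0. Yet 63 of 194 and 68 of 209 members held 2 or more B cell UMIs, and 40 and 30 held 2 or more myeloid UMIs. Leaving out members with 2 or more UMIs over the myeloid, B cell and erythroid markers left 102 and 107. The part of such droplets in single genes is given where a gene rests on them. Regulatory T cell genes other than Foxp3 (11 genes) summed to 619 and 547 CPM in the members. In 184 of 194 and 186 of 209 members they had 2 or more UMIs. They were at 482 and 330 CPM in cycling CD8 cells and at 2291 and 3131 CPM in the 8 and 2 cycling cells with Foxp3. The rule left out regulatory cells by Foxp3 alone, and whether some remained among the members was not tested.

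The share of conventional CD4 cells in division was 42.5% [38.0, 47.2] at day +7 (194 of 456) and 30.1% [26.7, 33.7] at day +14 (209 of 694). A rule that counts UMIs depends on depth, and the median conventional CD4 cell had 8293 UMIs at day +7 and 5340 at day +14. When every cell was thinned to 4000 UMIs, which dropped 13 shallower cells of day +7 and 199 of day +14, the shares were 35.2% [30.8, 39.9] and 34.5% [30.4, 38.9]. Of the dropped cells, 13 of 13 at day +7 and 196 of 199 at day +14 were below the division threshold at full depth, so the thinned shares describe the deeper cells and do not show equal shares over all conventional CD4 cells. In CD8 cells of the same libraries the shares were 56.9% and 59.1% at full depth and 45.2% [43.9, 46.5] and 53.0% [51.6, 54.3] after thinning. The cells spread unevenly over the division UMIs, with many at 0 to 2, many at 12 or more and few between.

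**Figure D1:**
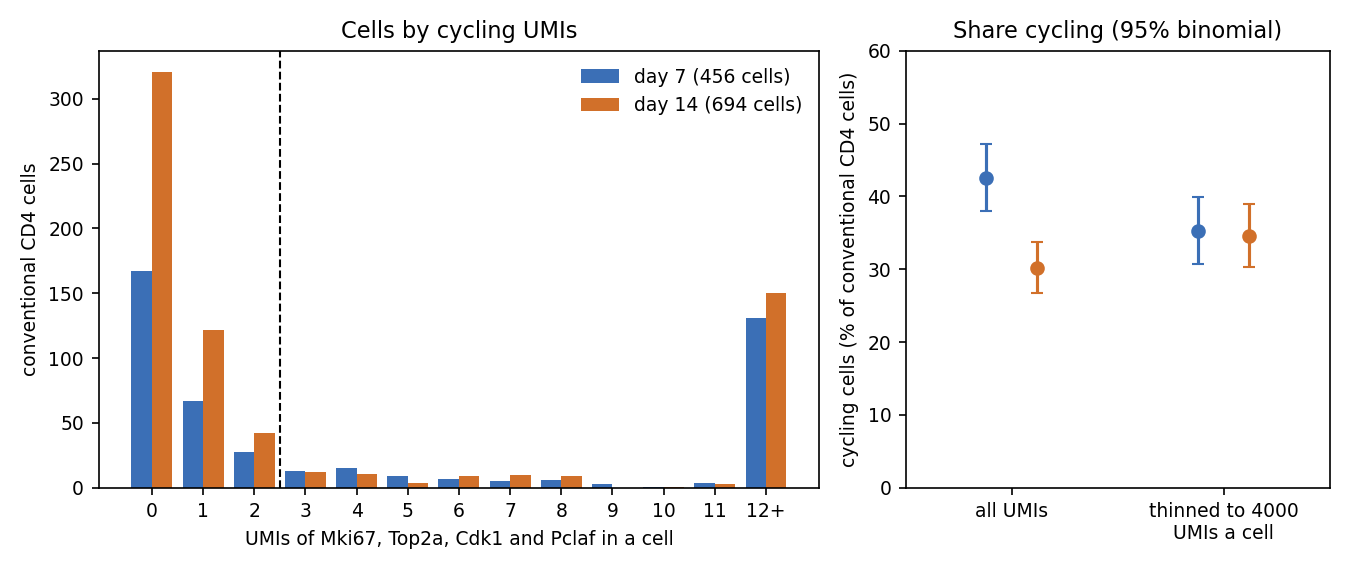
Left, number of conventional CD4 cells (vertical axis) by the UMIs of Mki67, Top2a, Cdk1 and Pclaf in a cell (horizontal axis), in blue for 456 cells at day 7 and in orange for 694 cells at day 14, with the threshold dashed. Right, share of cells past the threshold in percent with 95% binomial intervals: 42.5% and 30.1% with all UMIs, 35.2% and 34.5% with cells thinned to 4000 UMIs.

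Within the members, S phase genes and G2 and mitosis genes were at similar levels on both days, while replication-dependent histone genes were lower at day +14. The members of both days had passed the same threshold of division UMIs, with medians of 23 and 24 such UMIs. Similar levels of S phase and of G2 and mitosis genes thus follow in part from the rule and are a description. The 50 S phase genes, which replicate DNA, had sums of 5252 and 5952 CPM in the day +7 and day +14 libraries (log2 ratio 0.18 [0.15, 0.21]), and the 66 G2 and mitosis genes of 14736 and 15718 CPM (0.09 [0.07, 0.11]). No gene of either list passed the call used throughout, a log2 ratio of at least 1 in size with its interval on the same side of 0, which 1.74% of the 4990 tested genes passed upwards and 1.66% downwards. Histone genes, which package newly made DNA, had sums of 10986 and 4748 CPM (-1.21 [-1.24, -1.18]), and 26 of the 34 tested fell, with 0 called higher. Hist1h2ap was at 615 CPM and 105 CPM (-2.53), Hist1h4d at 1637 and 596 CPM (-1.46), Hist1h1e at 1168 and 432 CPM (-1.43) and the linker histone Hist1h1b, which was not called, at 1991 and 1371 CPM (-0.54). Transcripts of these genes mostly end in a stem-loop and not in a poly(A) tail, so capture on poly(A) recovers them in part, and whether that recovery differed between the libraries was not tested. In cycling CD8 cells of the same libraries the histone sum was 9988 and 4476 CPM (-1.16).

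At day +14 fewer cells had a high histone share, and the histone level within those cells was lower as well. At day +7, 79 of 194 members (40.7% [33.7, 48.0]) spent at least 1% of their UMIs on histone genes, and 50 spent at least 2%. At day +14 the numbers were 39 of 209 (18.7% [13.6, 24.6]) and 2. Median shares were 0.272% and 0.192%, and the highest cell reached 5.06% and 2.44%. In cycling CD8 cells, 38.5% and 12.7% of cells were at or over 1%. Among members at or over 1%, the histone sums of the 2 days were 22841 and 13435 CPM (-0.77 [-0.81, -0.72]), and among members under 1% they were 2477 and 3203 CPM (0.37). The histone-high cells at day +7 held more of Top2a (856 against 291 CPM) and of Prc1, which bundles the central spindle (324 against 91.3 CPM), than the other day +7 members. They held less of Tnfrsf4, the costimulatory receptor OX40 (110 against 329 CPM), and of Npm1, a nucleolar protein of ribosome assembly (1114 against 1848 CPM), while Gzmb was at 593 and 562 CPM. These cells were split after their values were seen, and the differences are a description.

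**Figure D2:**
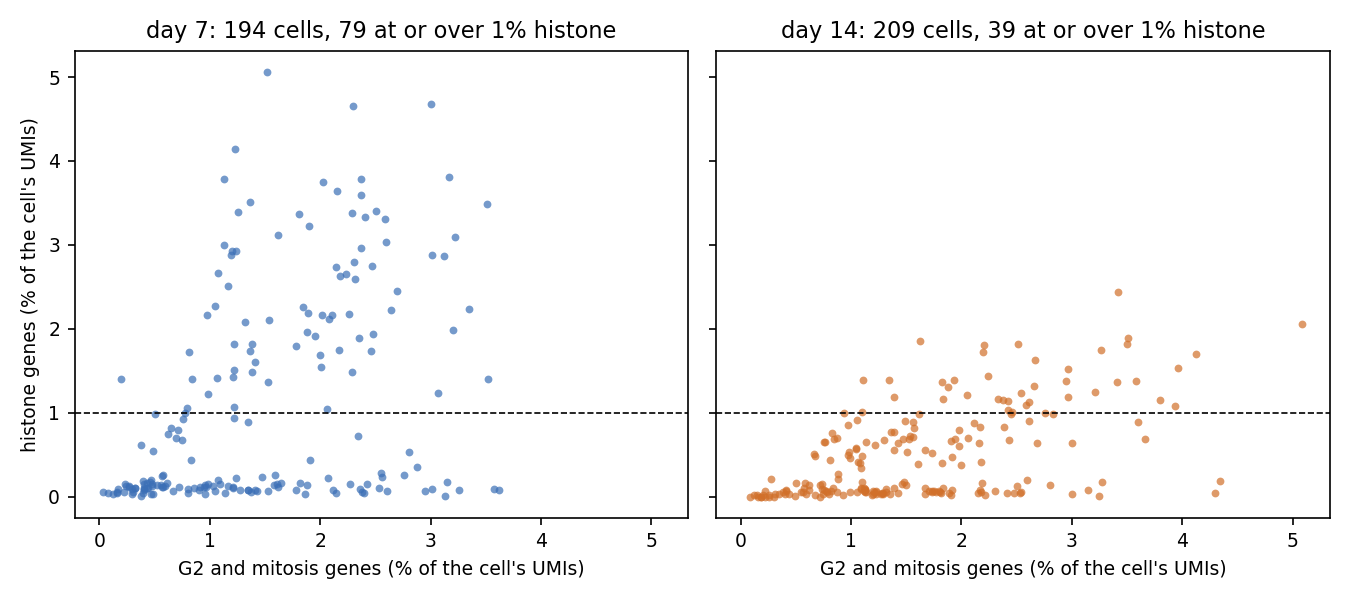
Each point is a member, with the share of its UMIs on G2 and mitosis genes (horizontal axis, percent) and on histone genes (vertical axis, percent), for 194 cells at day 7 (left, blue) and 209 cells at day 14 (right, orange). Of the cells, 79 and 39 lie at or over the dashed line at 1% histone UMIs, and 50 and 2 at or over 2%.

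Between the days, granzymes A and B, the Ifitm genes, Ccr2 and the IL-2 receptor chain Il2ra were lower at day +14, and Gzmk, Ccl5, Eomes, Tox, Cxcr3 and several glycolytic enzymes were higher. Of 4990 genes tested, 87 rose and 83 fell, which are the 1.74% and 1.66% given above. The call stood for 79 of the 87 and 82 of the 83 when the cell with the most UMIs of the gene was removed from each library, and for 71 and 78 when the filter of 20 CPM was applied again after the removal. The exceptions at an unchanged filter were Kdm2b, Pgk1 and Aldoa, Mt2 among the genes that fell, and S100a8, Ngp, Lcn2, Ltf and Lyz2, which rested on the day +14 cell with neutrophil transcripts. That cell also held 427 of 435 UMIs of Camp. Without it 88 genes were called higher and 83 lower, of which 80 and 82 were also called with it.

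**Figure D3:**
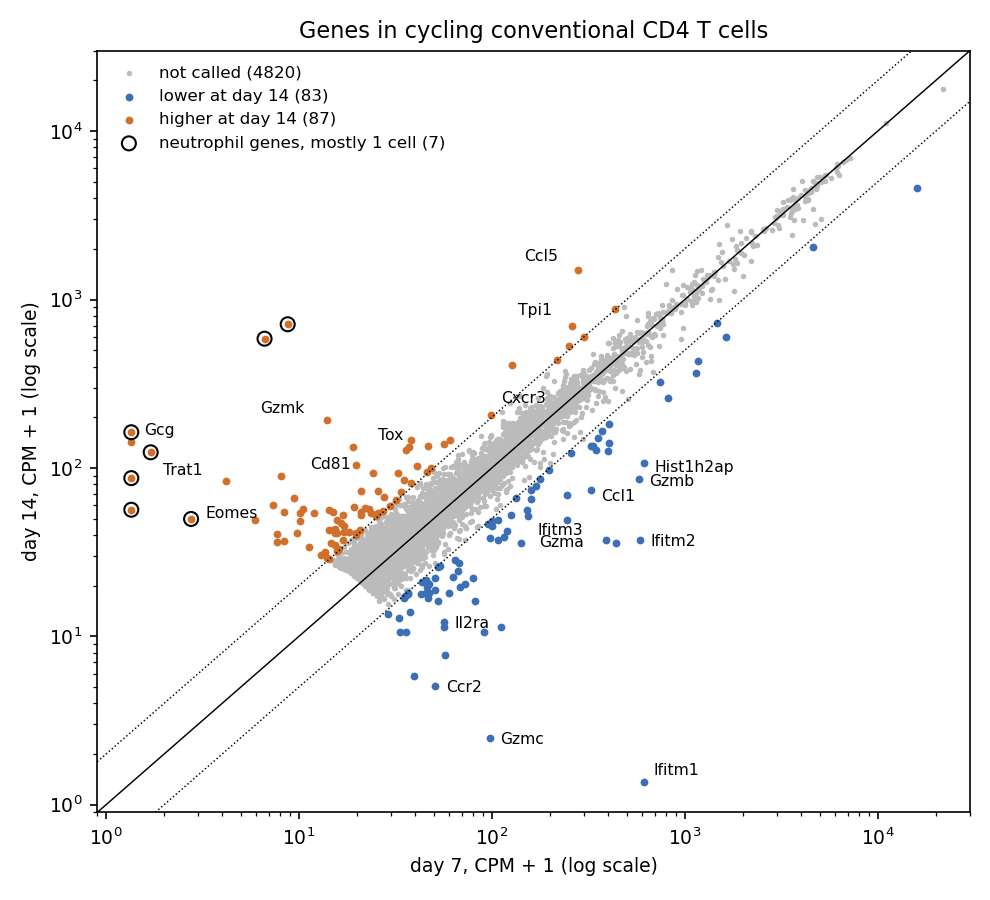
CPM plus 1 of 4990 genes in members of day 7 (horizontal axis, log scale) and day 14 (vertical axis, log scale), with 87 genes called higher in orange, 83 called lower in blue and equality and a log2 ratio of 1 in size as lines. Circles mark 7 neutrophil genes whose day 14 UMIs came mostly from 1 cell, and Ifitm1 (610 and 0.372 CPM) lies farthest below the diagonal.

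Among genes at 50 CPM or more, 6 of the 10 highest ratios (Camp, S100a9, S100a8, Ngp, Lcn2 and Ltf) rested on that cell, which held 97.3% to 98.3% of their day +14 UMIs. The other 4 were Gcg, Trat1, Gzmk and Penk, which were spread over 31 to 116 members at day +14. The 10 lowest ratios were those of Ifitm1, Gzmc, Ifitm2, Ifitm3, Gzma, AA467197, Ggt1, Fcer1g, Gzmb and Hist1h2ap. Ggt1, the enzyme that breaks down extracellular glutathione, was at 89.8 CPM in 107 cells and 9.68 CPM in 18 cells (-3.09), and AA467197 at 111 CPM in 100 cells and 10.4 CPM in 17 cells (-3.29). Fcer1g, a signalling chain of Fc and NK receptors, was at 56.3 CPM in 42 cells and 6.70 CPM in 7 cells (-2.90).

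Granule genes changed in opposite directions. Gzmb, the granzyme that cleaves caspases in target cells, was at 575 CPM in the day +7 library (148 of 194 cells with a UMI) and 84.5 CPM at day +14 (71 of 209 cells) and fell by 2.75 on the log2 scale [-2.96, -2.55]. Gzma was at 389 CPM and 36.1 CPM, a log2 ratio of -3.39 [-3.70, -3.10]. Gzmk, a granzyme with trypsin-like activity, was at 13.02 CPM at day +7 (19 cells) and 192 CPM at day +14 (116 cells), and rose by 3.79 [3.33, 4.27]. With each cell thinned to 4000 UMIs, 4.64% of day +7 and 43.2% of day +14 members held a Gzmk UMI, 63.9% and 21.4% a Gzmb UMI and 32.0% and 12.1% a Gzma UMI, against 0% and 0% for Gzmk, 3.03% and 2.86% for Gzmb and 9.09% and 2.86% for Gzma in the 33 and 35 thinned neutrophil-lineage droplets. The members thus held granzyme A and B more widely at day +7 and granzyme K more widely at day +14. Gzmc, at 96.8 and 1.49 CPM, was called lower, but 86.9% of its day +7 UMIs were in 1 cell. Of the 12 tested granule genes 1 rose and 5 fell, the others being the protease inhibitors Serpinb6b (370 and 164 CPM) and Serpinb9 (168 and 76.7 CPM), which shield cells from granzymes. The sum of the 14 granule genes was 4391 and 3211 CPM (-0.45 [-0.49, -0.41]). It rests largely on Nkg7 (1139 and 1107 CPM) and Srgn (1007 and 925 CPM), which hold and order granule contents and were not called, and the pore former Prf1 was at 39.4 and 22.3 CPM (-0.79).

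Among chemokines Ccl5 rose and Ccl1 fell. The sum of the list was 998 and 1865 CPM (0.90), carried by Ccl5, while the median ratio of its 5 tested genes was -0.54. Ccl5, a chemokine of effector T cells, was at 280 CPM (93 cells) and 1500.4 CPM (188 cells), a log2 ratio of 2.42 [2.31, 2.53]. In thinned cells 26.8% and 67.5% held a Ccl5 UMI, beside 0% and 22.9% of neutrophil-lineage droplets. Ccl1, a ligand of CCR8, was at 325 CPM in 26 cells and 72.6 CPM in 14 cells (-2.15 [-2.38, -1.93]), so few members carried it on either day. Ccl3 was at 109 and 75.2 CPM (-0.54), Ccl4 at 199 and 106 CPM (-0.90) and Xcl1, which draws cross-presenting dendritic cells, at 83.8 and 110 CPM (0.39). These 3 were not called. A single cell held 58.8% of the Ccl3 UMIs and a single cell 51.2% of the Ccl4 UMIs at day +7, against 29.2% and 35.3% at day +14. Without the cell with the most UMIs of each gene in each library the ratio of Ccl3 turned to 0.24 [-0.11, 0.58] and that of Ccl4 was -0.49 [-0.76, -0.22].

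The 3 Ifitm genes, whose membrane proteins hinder virus entry and are induced by interferon, showed the largest fall of the lists examined. Ifitm1 was at 610 CPM in 61 cells at day +7 and at 0.372 CPM, a single UMI, at day +14 (-8.80 [-9.24, -7.63]). Neutrophil-lineage droplets, of a lineage that can express it, held 628 and 211 CPM of Ifitm1. Ifitm2 was at 582 and 36.5 CPM (-3.96 [-4.26, -3.67]) and Ifitm3 at 440 and 34.6 CPM (-3.63 [-3.94, -3.33]). The other interferon response genes did not follow: of 15 tested only Isg15 was called (45.8 and 16.0 CPM, -1.46), and the list summed to 3703 and 3043 CPM (-0.28 [-0.33, -0.24]). At day +7 the 61 members with an Ifitm1 UMI held more Ifitm2 (1191 against 294 CPM), Ccr2 (94.2 against 29.1 CPM), Il2ra (87.6 against 40.0 CPM) and Il7r (75.6 against 32.2 CPM) than the 133 without, and less Ccl1 (64.6 against 449 CPM). Median depths of the 2 sets were 13257 and 12584 UMIs.

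Helper lists differed from each other in direction. Of 12 tested Th1 genes only Cxcr3, the receptor for interferon-induced chemokines, was called, at 98.2 CPM (131 cells) and 205 CPM (171 cells), with a log2 ratio of 1.05 [0.84, 1.26]. Ifng was at 146 and 83.4 CPM (-0.81), and Tbx21, which encodes T-bet, at 49.6 and 26.4 CPM (-0.88). Neither was called, and the Th1 sum was 1346 and 1268 CPM (-0.09 [-0.15, -0.02]), with a median ratio of -0.20 and 9 of the 12 tested genes below 0. In neutrophil-lineage droplets the same list summed to 2156 and 2646.5 CPM, so this sum is not particular to Th1 cells. The follicular helper sum was 696 and 958 CPM (0.46 [0.38, 0.55]), and of its 6 tested genes none passed, with Maf at 155 and 150 CPM, Sh2d1a, the adaptor SAP, at 191 and 358 CPM (0.90), and Pdcd1 at 127 and 185 CPM (0.53). Il21 was at 10.2 and 12.3 CPM and Bcl6 at 4.93 and 2.98 CPM. The Th2 sum was 145 and 78.9 CPM (-0.87 [-1.11, -0.63]), most of it Gata3, the Th2 factor, at 110 and 59.2 CPM (-0.88, not called), and Il13 had UMIs in 5 cells at day +7 and 0 at day +14. The Th17 sum was 40.1 and 108 CPM (1.41 [1.10, 1.73]), nearly all of it Rora, which rose from 39.8 to 101 CPM (1.33), while Il17a, Il17f and Il22 had no UMI in either library, which at 3 UMIs per library allows up to 1.06 and 1.12 CPM and at 3 cells up to 1.55% and 1.44% of cells with a UMI.

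Among transcription factors 4 of 18 tested genes rose and 0 fell. Eomes, a T-box factor of effector and memory cells, was at 7.39 CPM (8 cells) and 53.6 CPM (67 cells), and rose by 2.70 [2.09, 3.34]. Tox, a factor kept up under persistent antigen, was at 45.4 and 134 CPM (1.54 [1.25, 1.84]), with 13.9% and 38.8% of thinned cells holding a UMI. Runx1 was at 20.1 and 72.2 CPM (1.80) and Ikzf3, the Ikaros-family factor Aiolos, at 26.8 and 66.2 CPM (1.28). Batf, Id2 and Prdm1 were not called, at 297 and 342 CPM, 579 and 358 CPM, and 14.1 and 25.3 CPM. Of 7 tested inhibitory receptor genes, a list that also holds Tox, 2 rose and 1 fell. Cd160 was at 31.7 and 91.9 CPM (1.51), and Havcr2, which encodes TIM-3, at 46.5 and 19.4 CPM (-1.22), the opposite direction. Trat1, an adaptor that steadies the T cell receptor at the surface, was at 3.17 CPM (5 cells) and 82.2 CPM (78 cells), with a log2 ratio of 4.32 [3.54, 5.11].

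Receptors for growth and movement were mostly lower or not called. Il2ra, the high-affinity IL-2 receptor chain, was at 55.3 CPM (69 cells) and 11.2 CPM (17 cells) and fell by 2.21 [-2.77, -1.67]. Il7r was at 46.1 and 17.1 CPM (-1.38), and no other of the 12 tested cytokine receptors was called. Of 13 tested homing genes 2 rose, Cxcr3 and Cxcr4 (14.1 and 41.7 CPM), and 2 fell, Ccr2 (49.98 and 4.09 CPM, -3.32 [-4.10, -2.57]) and Gpr183 (61.6 and 21.6 CPM, -1.47), which guides cells to the outer follicle. The gut-homing integrin chains Itga4 and Itgb7 were at 266 and 290 CPM and at 251 and 176 CPM, not called. Of 11 tested naive and memory genes Il7r and Satb1, a chromatin organizer of T cells, fell, the latter from 63.7 to 27.5 CPM (-1.18). Tcf7, the factor of memory and stem-like cells, was at 25.7 CPM (22 cells) and 50.2 CPM (65 cells), with a log2 ratio of 0.94 under the call. Of 16 tested activation and costimulation genes Cd81, a tetraspanin that costimulates T cells, rose (23.2 and 92.7 CPM, 1.95) and Il2ra fell, while Tnfrsf4 was at 237 and 375 CPM (0.66).

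Regulators of entry into the cycle showed no call among 20 tested genes. Ccnd2, a D-type cyclin of G1, was at 119 and 74.1 CPM (-0.68), Ccnd3 at 149 and 122 CPM and Cdk4 at 154 and 183 CPM. Odc1, the rate-limiting enzyme of polyamine synthesis, is outside the lists and was named after its values were seen; it rose from 126 CPM (110 cells) to 407 CPM (184 cells), a log2 ratio of 1.69.

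Glycolysis was the metabolic list with the largest shift. Its 22 genes had sums of 5089 CPM [5006, 5173] and 8122 CPM [8015, 8230] on the 2 days (0.67 [0.64, 0.70]), and 6 of 15 tested genes rose with 0 fallen. They were Tpi1 (260 and 696 CPM, 1.42), Aldoa (436 and 877 CPM, 1.01), Pgk1 (298 and 599.5 CPM, 1.01), Pgam1 (217 and 439 CPM, 1.01), Pfkl (22.2 and 55.8 CPM, 1.29) and the lactate exporter Slc16a3 (9.15 and 52.8 CPM, 2.41). Gapdh (1938 and 2547 CPM, 0.39), Ldha (797 and 1229 CPM, 0.62) and Pkm (484 and 901 CPM, 0.89) were higher without passing the call, and Eno1 was at 146 and 124 CPM (-0.23). The shift was thus not even along the pathway, and Aldoa and Pgk1 lay so near a ratio of 1 that they passed no longer without the cell with the most UMIs. Of 6 tested hypoxia response genes 1 rose, Ankrd37 (15.5 and 46.1 CPM, 1.52), and the list summed to 536 and 824 CPM (0.62).

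The pentose phosphate pathway (PPP), which the study targets, was close to level. Its oxidative genes G6pdx, G6pd2, Pgd and Pgls had sums of 239 and 273 CPM (0.19 [0.04, 0.35]), with none called and a median over all genes of 0.09. Pgd, which encodes 6-phosphogluconate dehydrogenase, was at 43.6 CPM (74 cells) and 57.7 CPM (96 cells), a log2 ratio of 0.39 [0.05, 0.74]. G6pdx, at the entry of the pathway, was at 15.1 and 19.4 CPM, Pgls at 180 and 196 CPM, and G6pd2 had no UMI. Of the non-oxidative genes Tkt was at 202 and 244 CPM (0.27) and Taldo1 at 297 and 266 CPM (-0.16), and the list ratio was 0.03 [-0.07, 0.13]. Nucleotide synthesis, which uses ribose from this pathway, was at 4052 and 4008 CPM (-0.02), and 74 nuclear genes of oxidative phosphorylation were at 32387 and 32663 CPM (0.01). None of 26 and of 74 tested genes of these 2 lists was called.

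**Figure D4:**
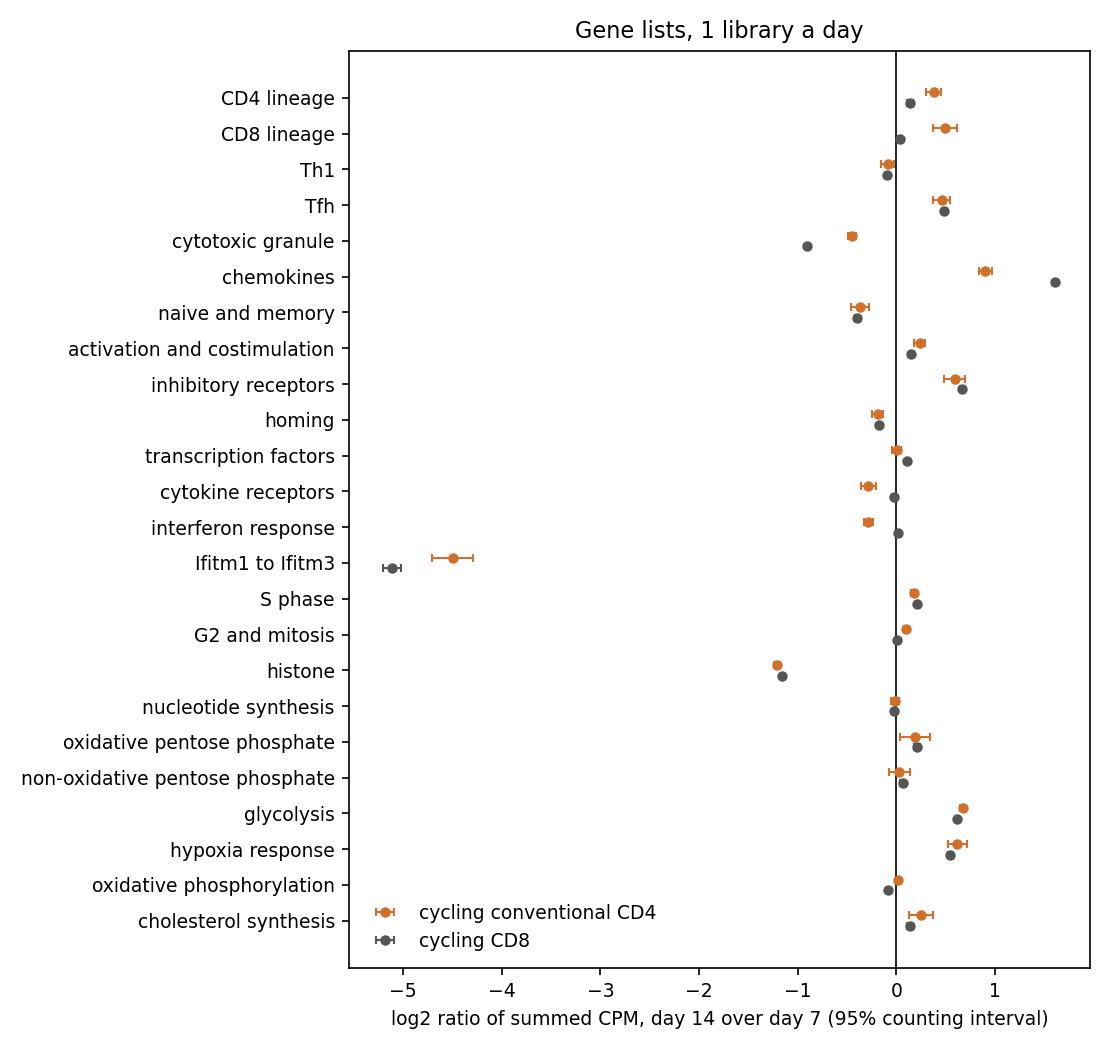
Log2 ratio of summed CPM, day 14 over day 7 (horizontal axis, 1 CPM added, bars are 95% counting intervals), for 24 gene lists (vertical axis) in cycling conventional CD4 cells (orange) and cycling CD8 cells (grey). Most lie between -0.5 and 1, with Ifitm1 to Ifitm3 at -4.50 and -5.11 and histone genes at -1.21 and -1.16 below, and of the lists plotted chemokines at 0.90 and 1.61, carried by Ccl5, farthest above 0. The Th17 list (1.41 in CD4 cells) and the Th2 list (-0.87), with 1 tested gene each, are not plotted.

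Cycling CD4 cells were set beside cycling CD8 cells of the same libraries, 3291 at day +7 and 3508 at day +14, since both were drawn by the same division threshold. Against CD8 cells, 46 of 4757 genes were called higher in the members at day +7 (0.967%) and 33 lower (0.694%), and at day +14 69 of 5160 (1.34%) and 56 (1.09%). Besides Cd40lg, the members held more Maf (log2 ratio of CD4 over CD8 cells 2.90 at day +7 and 3.58 at day +14), Tnfrsf4 (237 against 44.6 CPM at day +7 and 375 against 63.6 CPM at day +14) and Ccl1 (325 against 10.9 CPM and 72.6 against 2.53 CPM). They held less Prf1 (39.4 against 205 CPM and 22.3 against 163 CPM), the NK-type receptor Klrk1 (21.1 against 113 CPM and 11.9 against 82.5 CPM) and Gzma (389 against 3630 CPM and 36.1 against 210 CPM). Cells were selected on Cd4, Cd8a and Cd8b1, so these are descriptions.

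The change over time was in several genes of another size in the CD4 members than in CD8 cells, and no difference between these changes was tested. Gzmk was at 99.0 and 161 CPM in cycling CD8 cells (0.70) where the members had 13.02 and 192 CPM (3.79). Gzmb was at 1614 and 561 CPM in CD8 cells (-1.52) where the members had 575 and 84.5 CPM (-2.75), and Cxcr3 at 84.8 and 92.9 CPM (0.13) where the members had 98.2 and 205 CPM (1.05). Satb1 was at 43.7 and 53.7 CPM in CD8 cells (0.29), against the fall in the members, and Havcr2 at 69.3 and 56.9 CPM (-0.28). Eomes (2.16), Tox (1.64), Ifitm3 (-3.55), Slc16a3 (2.41) and Tpi1 (1.24) had values in CD8 cells near those of the members. The glycolysis sum in CD8 cells had a log2 ratio of 0.61, and the oxidative PPP sum of 0.21. In non-cycling conventional CD4 cells, 87 of the 87 genes called higher in the members and 81 of the 83 called lower had the same sign. Log2 ratios there were 0.66 for glycolysis and -4.27 for Ifitm genes, so these changes were not particular to the members. For histone genes the ratio was -1.31, at sums of only 796 and 320 CPM. Cells below the division threshold can include dividing cells of low depth, and whether these held the histone UMIs was not tested. The granule sum (0.0001) and the Th1 sum (0.30) did not fall there, against -0.45 and -0.09 in the members.

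**Figure D5:**
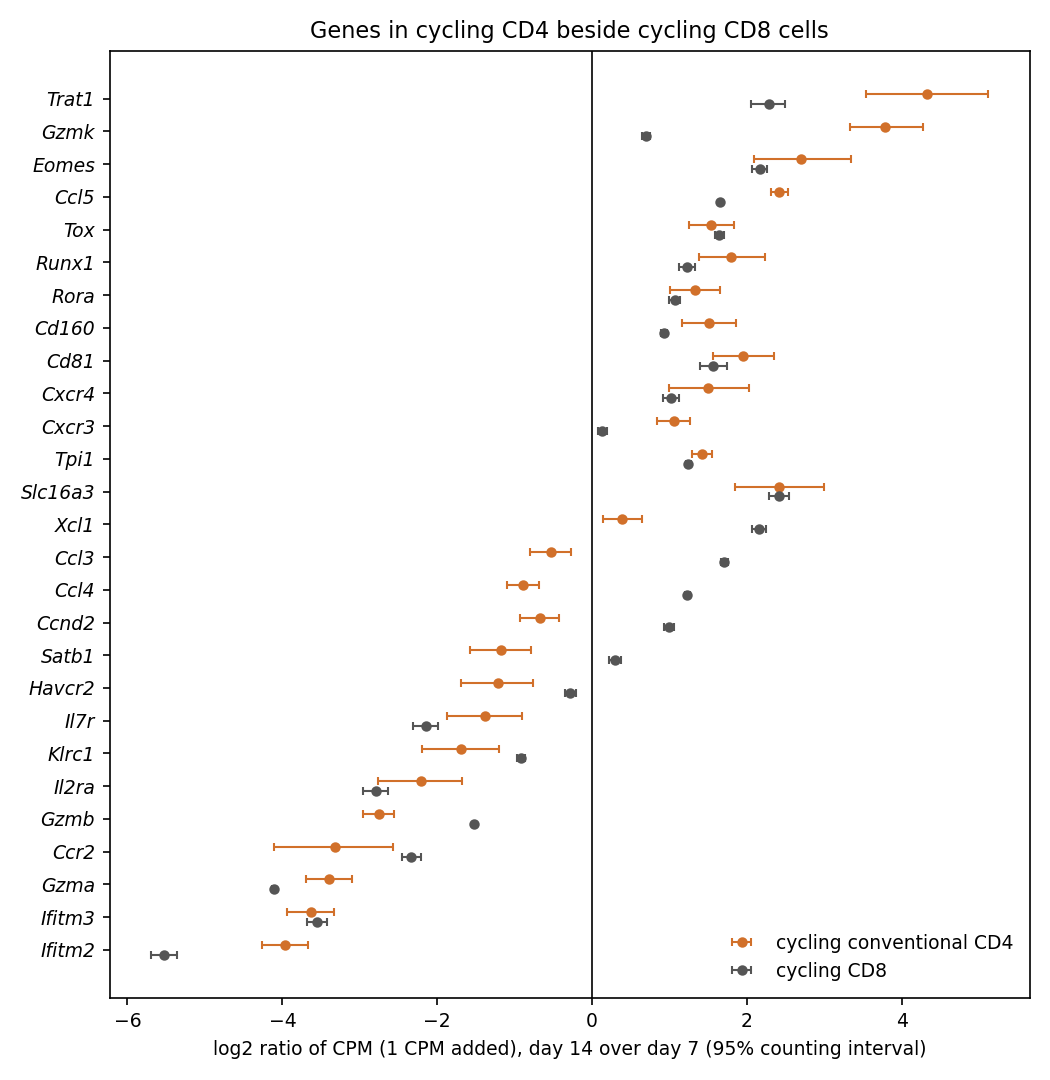
Log2 ratio of CPM, day 14 over day 7 (horizontal axis, 1 CPM added, bars are 95% counting intervals), for 27 genes (vertical axis) in cycling conventional CD4 cells (orange) and cycling CD8 cells (grey). Gzmk (3.79 and 0.70) and Cxcr3 (1.05 and 0.13) are farther from 0 in CD4 cells, and Ccl4 (-0.90 and 1.23) and Ccnd2 (-0.68 and 0.99) lie on opposite sides of 0, as does Ccl3 (-0.54 and 1.71), whose CD4 ratio was 0.24 without the cell with the most Ccl3 UMIs in each library.

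The members of day +14 were not uniform. The 116 cells with a Gzmk UMI held more Ccl5 (2368 against 435 CPM), Cd7 (208 against 37.3 CPM), Nkg7 (1474 against 658 CPM), Eomes (79.0 against 22.4 CPM) and Gzmb (129 against 29.9 CPM) than the 93 without. They held less Cd40lg (41.2 against 114 CPM), Tnfsf8, which encodes CD30 ligand (10.1 against 68.0 CPM), Tnfrsf4 (252 against 526 CPM), Bcl2, which guards against apoptosis (33.1 against 91.2 CPM), and Penk, the enkephalin precursor (49.3 against 138 CPM). At day +14 granule and helper ligand transcripts were thus higher in different members, while Cd4 itself was at 157 and 181 CPM and Tox at 140 and 126 CPM. At day +7 the 19 cells with Gzmk likewise held more Ccl5 (1371 against 185 CPM), but Cd40lg was at 101 and 82.3 CPM. Median depths at day +14 were 11312.5 and 12348 UMIs, and a split by a single UMI also sorts cells by depth.

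A Tcf7 UMI marked members with fewer cytotoxic transcripts on both days. At day +7 the 22 cells with Tcf7 held 50.7 CPM of Gzmb against 669 CPM in the 172 without, 34.6 against 324 CPM of Ccl5 and 25.4 against 168 CPM of Ifng. They held more of Id3, an inhibitor of E proteins kept in memory precursors (134 against 13.7 CPM), Tnfsf8 (87.6 against 21.2 CPM) and Slamf6 (184 against 88.9 CPM). At day +14 the 65 cells with Tcf7 held 421 against 2042 CPM of Ccl5, 95.8 against 241 CPM of Gzmk and 196 against 35.2 CPM of Penk. The direction of Gzmb, Ccl5, Ifng, Id3, Tnfsf8 and Slamf6 was the same in both libraries. These splits were chosen after the values were seen.

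Members differed from the 262 and 485 non-cycling conventional CD4 cells by the division genes that chose them and by others outside the S phase, G2 and histone lists. Mxd3 (64.8 against 0.532 CPM at day +7), Shcbp1 (57.0 against 1.60 CPM) and Fbxo5, an inhibitor of the anaphase-promoting complex (131 against 4.79 CPM), were higher in the members. Lower were Btg1, an antiproliferative gene (115 against 352 CPM at day +7 and 162 against 774 CPM at day +14), Mxd4, a Myc antagonist (34.9 against 111 CPM and 46.5 against 187 CPM), and Ypel3 (24.99 against 97.4 CPM and 48.4 against 208 CPM). Ccl5 was lower in the members as well, at 280 against 1694 CPM and 1500.4 against 8012 CPM. In this contrast 353 of 4737 genes were higher (7.45%) and 82 lower (1.73%) at day +7, and 402 (7.58%) and 323 (6.09%) of 5303 at day +14, in cells of unlike depth.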

How the data were processed

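The authors sorted splenic donor T cells, made 1 library per day on the 10x Genomics Chromium system and deposited counts of UMIs per gene and cell, whole numbers without normalization, for the barcodes called as cells. The submitters' processing notes name Cell Ranger 6.1.2 and the mm10 genome. Barcodes deposited numbered 7355 (87124828 UMIs) at day +7 and 8043 (84233811 UMIs) at day +14. Cells with 500 to 7500 detected genes and at most 15% mitochondrial UMIs were kept, and none was removed as a doublet in the values given. Scrublet in scanpy 1.11.5 was used for an alternative only, with an assumed doublet share of 0.8% per 1000 cells. UMIs were summed over the members of a library and scaled to CPM. A gene with a mean of at least 20 CPM was called where the log2 ratio with 1 CPM added was at least 1 in size and its interval excluded 0. No test was made, since each day has 1 library.

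Named genes were those of the rule, the 10 highest and 10 lowest called ratios at 50 CPM or more, in each list the 3 genes with the most CPM and the called gene changed most each way, the 5 most different each way from CD8 and from non-cycling CD4 cells, and the PPP genes; others were named after their values were seen. The members and lists were chosen with earlier results of these data known. Mx1 of the interferon list was not analysed here. Python 3.11.15, numpy 2.4.6, scipy 1.17.1, pandas 2.3.3 and matplotlib 3.10.9 were used, the calls were tested on simulated data, and the alternatives are given after the results.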

Additional observations from a re-analysis of the deposited data

Results flagged for a closer look

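In 3 genes of the lists, among those with an average of 20 CPM or more in both cell groups, the members and the cycling CD8 cells of the same libraries moved in opposite directions between the days by at least 0.5 on the log2 scale, with both counting intervals away from 0. Ccl3 had a log2 ratio of day +14 over day +7 of -0.54 in cycling CD4 cells and 1.71 in cycling CD8 cells. Ccl4, another chemokine gene, had -0.90 and 1.23. Ccnd2, the D-type cyclin, had -0.68 and 0.99. There is 1 library for each day, so the difference between the 2 changes was not tested. For Ccl3 and Ccl4 the members with UMIs were few, 33 and 33 cells at day +7 and 42 and 43 at day +14, and at day +7 a single cell held 58.8% of the Ccl3 UMIs and a single cell 51.2% of the Ccl4 UMIs. Without the cell with the most UMIs of the gene in each library, a choice made after seeing the data, the ratio of Ccl3 in the members turned to 0.24 [-0.11, 0.58], so its opposite direction rested on those cells, and Ccl4 was at -0.49 and Ccnd2 at -0.68. Among members at or over 1% histone UMIs, also a split made after seeing the data, the ratios were 2.99 for Ccl3, 4.41 for Ccl4 and 0.60 [-0.01, 1.20] for Ccnd2. Among members under 1% they were -1.39, -2.04 and -1.18, so the falls of all 3 genes were in the latter members only. Esm1, below that average in cycling CD8 cells, also had opposite signs.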

How the results depend on the processing

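No paired analysis was possible because each day has a single library, and for the same reason no library could be left out. Under 15 other settings, 138 of 177 values of the 13 main results were counted as kept, 37 as moved and 2 as reversed. Among 2497 values of single genes and other lists 7 reversed. A ratio or share counted as kept if it lay within the counting interval of the main value. Numbers of genes had a wider margin, so that 129 against 87 genes higher counted as kept. Settings that change only the filter on low genes cannot change a summed list ratio, so those values were kept by construction. The causes were not tested, apart from those that a setting sets itself. Scaling by the median ratio over genes gave a log2 ratio of -0.18 for Th1, -0.55 for granule genes, -0.46 for naive and memory genes, 0.0843 for S phase, -0.0032 for G2 and mitosis (reversed), 0.58 for glycolysis and -1.31 for histone genes. At an average of 50 CPM or more 30 genes were higher and 46 lower, and with no filter 575 and 253, as fewer or more genes were tested. The mean of per-cell CPM gave -0.38 for granule genes, 0.21 for S phase and 0.13 for G2 and mitosis. Thinning to 4000 UMIs gave 204 genes higher and 100 lower, of which 70 and 69 were among the 87 and 83, -0.34 for granule genes, 0.13 for G2 and mitosis, -4.83 for Ifitm genes and division shares of 35.2% and 34.5%. A threshold of 5 division UMIs gave 0.0636 for G2 and mitosis, -1.24 for histone genes and a day +7 share of 36.4%, and a threshold of 2 Cd4 UMIs gave 0.22 for S phase. Without the highest Scrublet scores, G2 and mitosis were at 0.0678, histone genes at -1.25 and erythroid markers reversed to 1.51. Without cells holding 2 UMIs of other cell types, which left 102 and 107 members, 150 genes were higher, S phase was at 0.26, G2 and mitosis at 0.0690, Ifitm genes at -5.42, histone genes at -1.37 and the day +14 share at 24.5%, and erythroid markers (0.0670), B cell markers (-0.34) and Lcn2 (-0.83) reversed. The remaining settings were chosen after seeing the data. Without the cell with neutrophil transcripts the myeloid markers reversed to -0.68. Without the cell with the most UMIs of each gene they were at -0.51, erythroid markers at 1.33 and granule genes at -0.40. In cells under 1% histone UMIs, which lowers the histone sum by its own construction, histone genes were at 0.37 (reversed), S phase at 0.33, G2 and mitosis at 0.25, granule genes at -0.49, naive and memory genes at -0.48 and Ifitm genes at -4.21.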

Other observations

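Gcg, the glucagon precursor gene, was at 0.352 CPM (1 cell) in the day +7 members and 142 CPM (31 cells) at day +14, where the cell with the most UMIs held 25.9% of them. In non-cycling conventional CD4 cells it was at 14.4 and 230 CPM, in cycling CD8 cells at 0.0985 and 3.30 CPM, and in neutrophil-lineage droplets at 0. Penk, the enkephalin precursor gene, was at 7.04 CPM (4 cells) and 88.9 CPM (36 cells), beside 0.709 and 5.89 CPM in cycling CD8 cells.

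Esm1 was named after its values were seen. It was at 4.93 CPM (7 cells) and 48.0 CPM (69 cells) in the members, a log2 ratio of 3.05, and at 19.1 and 4.18 CPM in cycling CD8 cells, -1.96. The difference between the 2 changes was not tested. Bcl2l11, which encodes the death promoter BIM, was at 32.4 and 9.68 CPM in the members (-1.64) and at 32.5 and 42.5 CPM in CD8 cells (0.38).

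T cell receptor β segments were seen in few members, 62 at day +7 and 63 at day +14 with a UMI of any Trbv gene. Trbv2 was in 8 of 62 (12.9% [5.74, 23.9]) and 17 of 63 (27.0% [16.6, 39.7]), and Trbv13-2 in 8 of 62 and 16 of 63 (25.4% [15.3, 37.9]). These 2 segments were the most frequent in the day +14 members, and the intervals of the 2 days overlap. In non-cycling conventional CD4 cells with a Trbv UMI, Trbv2 was in 14.1% and 21.5% and Trbv13-2 in 11.3% and 22.6%, the same direction. In cycling CD8 cells Trbv2 was in 9.08% and 9.53% and Trbv13-2 in 10.2% and 6.62%. Trbc1 was at 747 CPM (126 cells) and 323 CPM (114 cells) in the members, a log2 ratio of -1.21, and had a ratio of 0.16 in cycling CD8 cells.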
